A study of Mus musculus with 35 samples.

Results

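The BCL2 family decides whether the outer membrane of the mitochondrion stays intact, and 9 of its genes were followed through CD8 T cells of mouse liver and spleen. The 9 genes were chosen by symbol from the 22865 genes of the count table: Bcl2, Bcl2l1, Mcl1, Bcl2a1b, Bcl2a1d, Bax, Bak1, Bid and Bcl2l11. Polyadenylated RNA of sorted cells was read from its 3′ end in bulk. All groups came from C57BL/6 mice aged 13 months and differed by diet, labelled CD-HFD or ND, and by cell fraction. Sorting on CXCR6, a chemokine receptor, had split the hepatic CD8 T cells into CXCR6pos cells (5 CD-HFD and 6 ND libraries) and CXCR6neg cells (6 CD-HFD and 4 ND libraries). Splenic CD8 T cells lacked the chemokine receptor CX3CR1 (6 CD-HFD and 5 ND libraries). Whether the libraries of a group come from separate animals is not in the labels, so the spread behind each p-value may be technical.

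The family works by binding between its own members. BCL2, BCL-XL (encoded by Bcl2l1), MCL1 and A1 (encoded by the Bcl2a1 genes) hold the cell alive by sequestering the pro-death members. BAX and BAK (encoded by Bak1) are the effectors that form pores in the mitochondrial outer membrane and release cytochrome c. BID and BIM (encoded by Bcl2l11) carry only the BH3 domain, by which they activate the effectors or occupy the survival proteins. In T cells, interleukin 7 and interleukin 15 are known to maintain Bcl2, antigen receptor and NF-kB signals are known to induce A1, and BIM is known for the death of T cells after a response. Much of the control of MCL1, BIM and BID acts on the protein, which RNA counts do not show.

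The 32 libraries held between 15633 and 978896 counts, and all 9 genes passed the low-count filter that left 6174 genes. The shallowest libraries were ND CXCR6pos replicate 1 with 15633 counts and CD-HFD CXCR6pos replicate 5 with 57168 counts. CPM, the count scaled to library size by the TMM method of edgeR, is the unit of level throughout. In ND liver, Cxcr6 did not separate the sorted fractions cleanly. The library labelled ND CXCR6pos replicate 6 had 201 CPM of Cxcr6, and the library labelled ND CXCR6neg replicate 4 had 450 CPM. All 8 T cell markers were detected in every group. In bulk RNA, fewer cells of a type and less RNA per cell cannot be told apart.

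Bcl2a1b and Bcl2a1d, the A1 genes among the 9, are near-identical copies on chromosome 9 that lie on opposite strands. On GRCm38, Bcl2a1d covers chr9:88723285-88731914 on the minus strand and Bcl2a1b covers chr9:89199209-89207827 on the plus strand. The copy Bcl2a1a lies between them, 225.0 kb from Bcl2a1d and 237 kb from Bcl2a1b. Their promoters are printed because they differ by few bases and the genes had the same order of group means in these libraries. As the copies may share reads, that common order may not come from independent measurements. Each window runs from 250 bases before to 50 bases after a RefSeq transcript start on GRCm38.p6, and capitals mark the bases that differ between the aligned parts.

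Bcl2a1b promoter, chr9:89199023-89199322, plus strand: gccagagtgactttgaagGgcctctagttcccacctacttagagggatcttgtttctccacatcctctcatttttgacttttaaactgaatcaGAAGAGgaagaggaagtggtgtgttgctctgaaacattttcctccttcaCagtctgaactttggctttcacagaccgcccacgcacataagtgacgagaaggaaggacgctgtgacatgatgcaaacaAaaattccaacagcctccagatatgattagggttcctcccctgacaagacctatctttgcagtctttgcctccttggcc
Bcl2a1d promoter, chr9:88731801-88732100, minus strand: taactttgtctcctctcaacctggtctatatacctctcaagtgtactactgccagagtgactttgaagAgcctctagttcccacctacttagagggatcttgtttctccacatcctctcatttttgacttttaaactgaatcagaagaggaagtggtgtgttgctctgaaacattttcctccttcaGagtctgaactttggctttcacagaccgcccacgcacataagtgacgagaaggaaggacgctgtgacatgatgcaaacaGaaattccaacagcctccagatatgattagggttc

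Of 256 aligned columns 247 were identical, 3 were mismatches and 6 were gap columns, an identity of 96.5%. Both windows hold the letters tgaatca, a match to the AP-1 motif TGANTCA, which is its own reverse complement and was searched on both strands. Of 12 promoter windows of the 9 genes only these 2 held that motif, against 7.81% of 32851 RefSeq promoter windows. As the 2 windows are near-identical copies, their matches are not independent, and enrichment was not tested. The NF-kB motif, GGGA and CC with any 4 bases between them and searched on both strands, was found in 3 of the 12 windows, at Bcl2a1b, Bak1 and a start of Bcl2l11, against 20.7% of all windows. The window of Bcl2a1d ends inside the stretch that matches in Bcl2a1b, so these 2 copies cannot be compared for this motif. No overlap with another motif was counted, and a match of letters is not a bound site.

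The near-identity reaches the sequenced ends of the transcripts. Of 226 windows of 75 bases, the length of the cDNA read, in the last 300 bases of Bcl2a1d, 94.2% were also present in another gene, and for Bcl2a1b the share was 60.2%. Bcl2a1b and Bcl2a1d shared 136 of these windows with each other, so the division of counts between the copies is uncertain. No such window was shared for Bcl2, Bcl2l1, Bcl2l11, Mcl1, Bak1 or Bid, and for Bax 15.3% were shared with the overlapping gene model Gm45808. Bcl2a1b overlaps Gm29094 on the same strand, and Bcl2a1d overlaps Gm10634 on the other strand. On the same strand, Bid overlaps Gm44260 and Bcl2 overlaps Gm37053 and Mir3473f. On the other strand, Bid overlaps Bcl2l13 and Gm17812, Bcl2 overlaps D630008O14Rik and Bak1 overlaps Ggnbp1. The use of strand in counting is not given in the sources used here.

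The A1 genes were the members whose level varied most among the 6 groups. The ratio of the highest to the lowest group mean was 8.79 for Bcl2a1d and 5.41 for Bcl2a1b, followed by 2.16 for Bid. For the other 6 genes it lay between 1.25 for Mcl1 and 1.74 for Bcl2l11. Bcl2a1b and Bcl2a1d, which may share reads, had the same order of group means: CD-HFD CXCR6pos, CD-HFD CXCR6neg, ND CXCR6pos, ND CXCR6neg, CD-HFD spleen and ND spleen. For both, the gap between the highest group and the next exceeded the larger SD of the pair, and for Bcl2a1d so did the gap between CD-HFD spleen and ND spleen. No other neighbouring groups, for any of the 9 genes, differed by more than that SD.

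**Figure D1:**
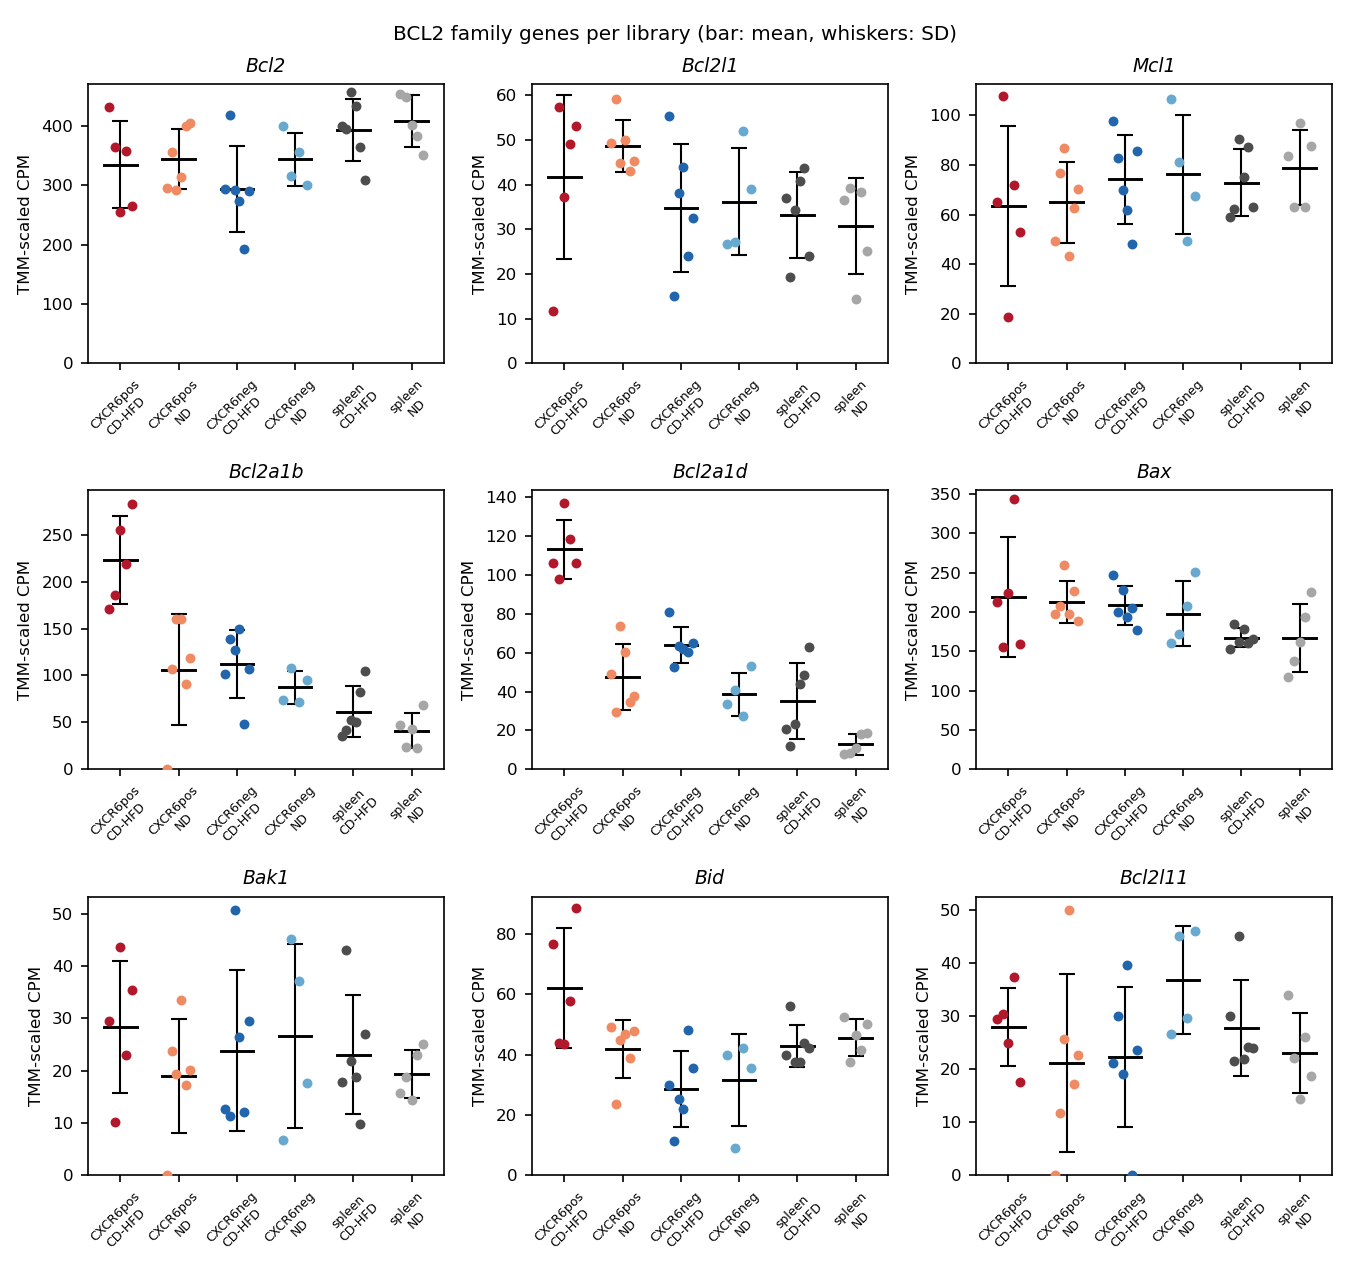
TMM-scaled CPM (y axes, starting at 0) of the 9 genes in each library (points) of the 6 groups (x axes), with the mean as a bar and the SD as whiskers. The 5 CD-HFD CXCR6pos libraries lie between 171 and 283 CPM for Bcl2a1b and between 97.9 and 137 CPM for Bcl2a1d, above every library of the other liver groups.

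Differences were tested with edgeR's quasi-likelihood test over all 6174 genes, at a Benjamini-Hochberg adjusted p of 0.05. Comparisons with a group in common share its libraries and are not independent. Bcl2a1b and Bcl2a1d may share reads, so in any count of members called their 2 calls may not be independent either. In CXCR6pos against CXCR6neg cells of CD-HFD liver, 3 of the 9 genes rose and 0 fell, against 4.76% of all genes higher and 6.38% lower. The same comparison in ND liver called 0 of 9 (1 at an unadjusted p under 0.05, and 0 of 9 called without the libraries that went against their Cxcr6 label), where 0.0324% of all genes passed in either direction. CD-HFD against ND raised 2 of the 9 in CXCR6pos cells and lowered 0, with 4.84% of all genes higher and 6.45% lower. The diets called 0 of 9 in CXCR6neg cells (1 unadjusted; 0.47% of all genes) and 0 of 9 in spleen (2 unadjusted; 0.0324% of all genes).

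Liver cells were also set against spleen cells on the same diet. Liver cells were sorted on CXCR6 and spleen cells on CX3CR1, so tissue and sorting cannot be told apart in these comparisons. CXCR6pos cells had 3 members higher and 0 lower on CD-HFD, where 12.5% of all genes were higher and 13.3% lower. On ND they again had 3 higher and 0 lower, where 7.43% of all genes were higher and 6.98% lower. CXCR6neg cells had 2 higher and 1 lower on CD-HFD, beside 5.73% of all genes higher and 4.71% lower. On ND they had 2 higher and 0 lower, beside 4.73% of all genes higher and 2.14% lower. Neither test of a difference between diet effects called a member. For CXCR6pos minus CXCR6neg cells it was 0 of 9 (0 unadjusted; 1.44% of all genes in either direction), and for CXCR6pos cells minus spleen it was 0 of 9 (0 unadjusted; 3.98%). DESeq2 called 0 members in the last 2 tests and in the comparisons above that had none.

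**Figure D2:**
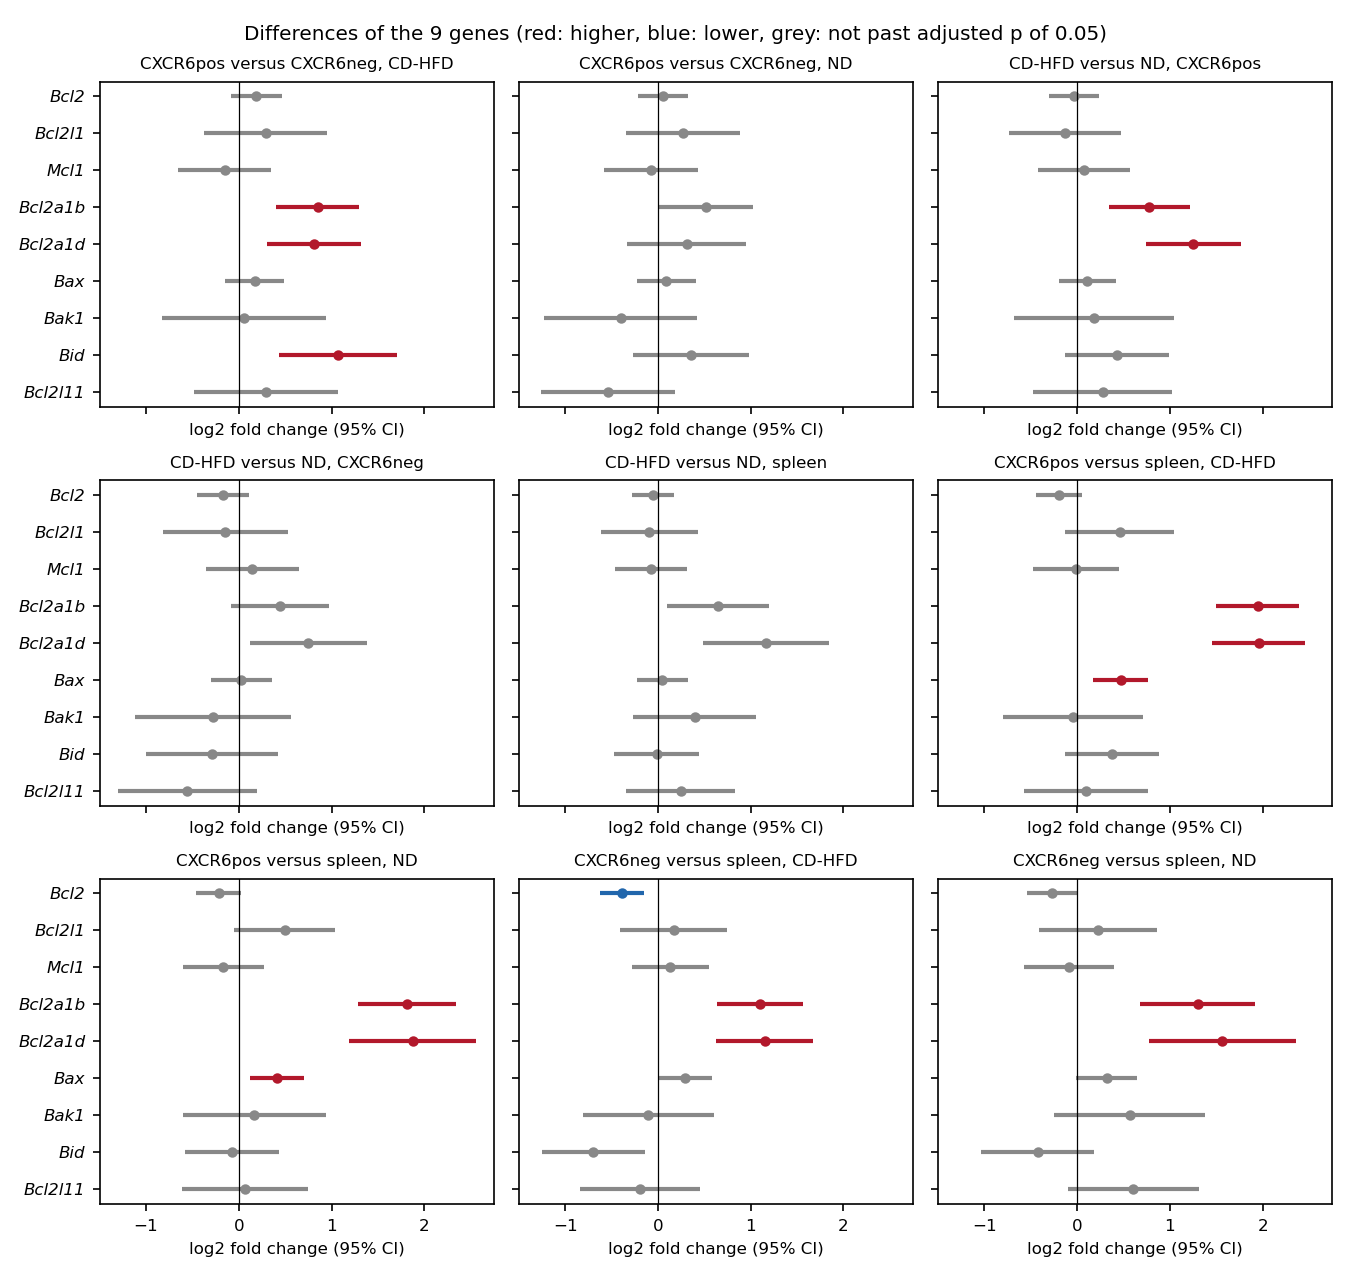
Log2 fold changes (x axes) of the 9 genes (rows) in the 9 comparisons between groups, with the 95% confidence interval as a line. Red marks a gene that was higher and blue one that was lower past the adjusted p of 0.05. Bcl2a1b and Bcl2a1d are red in all 6 comparisons that called any member.

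Bcl2a1b, which encodes a copy of the survival protein A1, was highest in CXCR6pos cells of CD-HFD liver. These 5 libraries held 171, 186, 255, 219 and 283 CPM. The 6 CD-HFD CXCR6neg libraries ran from 48.3 over a median of 117 to 150 CPM. All CXCR6pos libraries lay above all CXCR6neg libraries, with a log2 fold change of 0.85 ± 0.22 (SE; 1.80-fold; edgeR adjusted p = 0.00604). The 6 ND CXCR6pos libraries ran from 0 over a median of 112 to 161 CPM, again with no overlap with the CD-HFD CXCR6pos libraries. The diet difference in CXCR6pos cells was 0.78 ± 0.22 (1.72-fold; edgeR adjusted p = 0.00942). The ND library at 0 was the shallowest, in which 3 counts would correspond to 148 CPM, and without it and CD-HFD CXCR6pos replicate 5 the diet difference was 0.71 (edgeR adjusted p = 0.0193).

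Spleen had the least Bcl2a1b. The 4 ND CXCR6neg libraries held 73.4, 108, 71.7 and 95.6 CPM. The 6 CD-HFD spleen libraries ran from 35.6 over a median of 51.6 to 105 CPM, and the 5 ND spleen libraries held 47.1, 23.9, 43.0, 23.0 and 69.0 CPM. Every ND CXCR6neg library lay above every ND spleen library. CXCR6pos cells exceeded spleen by 1.95 ± 0.22 on CD-HFD and by 1.81 ± 0.26 on ND on the log2 scale (edgeR adjusted p = 2.73e-10 and 3.46e-07). CXCR6neg cells exceeded spleen by 1.10 ± 0.23 on CD-HFD and by 1.30 ± 0.31 on ND (edgeR adjusted p = 0.000459 and 0.00302).

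Bcl2a1b gave no call between the sorted fractions of ND liver, where CXCR6pos minus CXCR6neg was 0.52 with a 95% interval from 0.00 to 1.03 (edgeR adjusted p = 0.613). Nor did it between the diets in CXCR6neg cells, at 0.45 with an interval from -0.09 to 0.98, or in spleen, at 0.65 with an interval from 0.10 to 1.20 (edgeR adjusted p = 0.691 and 0.991). All 6 calls of Bcl2a1b held when any single library was left out.

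Bcl2a1d, the other A1 copy among the 9, had the largest diet difference of the members in CXCR6pos cells. The CD-HFD CXCR6pos libraries held 106, 97.9, 137, 118 and 106 CPM. The ND CXCR6pos libraries ran from 29.6 over a median of 43.5 to 73.9 CPM, below every CD-HFD library. The log2 fold change was 1.25 ± 0.26 (2.38-fold; edgeR adjusted p = 0.000136), and it ran from 1.12 to 1.46 when each library was left out in turn. Without the ND libraries that went against their Cxcr6 label it was 1.17 (edgeR adjusted p = 0.00106).

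Against CXCR6neg cells of CD-HFD liver the difference of Bcl2a1d was smaller and rested on more of the libraries. The CXCR6neg libraries ran from 52.7 over a median of 62.5 to 80.8 CPM, all below the CXCR6pos libraries. The log2 fold change was 0.81 ± 0.25 (1.75-fold; edgeR adjusted p = 0.0212). Without CD-HFD CXCR6pos replicate 3 it was 0.74, without CD-HFD CXCR6pos replicate 4 it was 0.78 and without CD-HFD CXCR6neg replicate 2 it was 0.75, with edgeR adjusted p = 0.0643, 0.0681 and 0.0568, past which the call was lost. DESeq2 gave 0.82 with an adjusted p of 0.0780.

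Spleen held little Bcl2a1d. The 4 ND CXCR6neg libraries held 33.3, 40.7, 27.2 and 53.1 CPM. The CD-HFD spleen libraries ran from 11.8 over a median of 33.7 to 63.1 CPM, and the ND spleen libraries held 7.86, 8.54, 10.8, 18.4 and 18.8 CPM from 3 to 12 counts each. In ND mice both liver fractions lay above spleen in every library. CXCR6pos cells exceeded spleen by 1.96 ± 0.25 on CD-HFD and by 1.87 ± 0.34 on ND (edgeR adjusted p = 2.15e-10 and 1.17e-05). CXCR6neg cells exceeded spleen by 1.15 ± 0.27 on CD-HFD and by 1.56 ± 0.40 on ND (edgeR adjusted p = 0.000845 and 0.00440). The last call was lost without ND CXCR6neg replicate 5, at 1.34 (edgeR adjusted p = 0.0649).

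The diet difference of Bcl2a1d was positive in all 3 fractions but was called in CXCR6pos cells alone. In spleen it was 1.17 ± 0.34, with a 95% interval from 0.48 to 1.85, an unadjusted p of 0.000962 and an edgeR adjusted p of 0.510. Without CD-HFD spleen replicate 2, the lowest of its group at 11.8 CPM, it was 1.44 and passed the threshold (edgeR adjusted p = 0.0447). In CXCR6neg cells it was 0.75, with an interval from 0.12 to 1.38 (edgeR adjusted p = 0.445). The diet effect in CXCR6pos cells exceeded that in CXCR6neg cells by 0.50 (interval -0.33 to 1.33) and that in spleen by 0.08 (interval -1.03 to 1.20), with edgeR adjusted p = 0.748 and 0.980, so no difference between the fractions was shown.

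Taking the 4 Bcl2a1 rows as 1 gene sets aside the division of counted reads between copies. Whether reads matching several copies were counted at all is not given in the sources used here. The shares of single copies rest on that uncertain division. Bcl2a1b held 64.0% and Bcl2a1d 34.2% of the 339 Bcl2a1 counts in CD-HFD CXCR6pos cells, against 72.2% and 27.5% of 284 counts in ND CXCR6pos cells. The share of Bcl2a1d had exact Clopper-Pearson 95% intervals of 29.2% to 39.5% and 22.4% to 33.0% in these groups, which overlap and cover counting error only. Across groups it ran from 25% in ND spleen to 35.0% in CD-HFD CXCR6neg cells. Bcl2a1a was seen mainly in spleen. It had 3 of 339 Bcl2a1 counts in CD-HFD CXCR6pos cells, 0 of 284 in ND CXCR6pos cells, 0 of 240 in CD-HFD CXCR6neg cells and 1 of 132 in ND CXCR6neg cells, against 29 of 283 in CD-HFD spleen and 7 of 104 in ND spleen. A share of 0 allows up to 1.29% in ND CXCR6pos and 1.53% in CD-HFD CXCR6neg cells by the same intervals.

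With the copies summed before the fit, the log2 difference between CXCR6pos and CXCR6neg cells on CD-HFD was 0.86 ± 0.23 and the diet difference in CXCR6pos cells was 0.95 ± 0.23 (edgeR adjusted p = 0.00987 and 0.00344, for the row that stands for both Bcl2a1b and Bcl2a1d). The summed Bcl2a1b and Bcl2a1d levels averaged 336 ± 55.1 CPM in CD-HFD CXCR6pos cells and 154 ± 67.9 CPM in ND CXCR6pos cells (SD, n = 5 and 6). They averaged 176 ± 35.6 CPM in CD-HFD CXCR6neg cells, 126 ± 26.8 CPM in ND CXCR6neg cells, 96.6 ± 45.2 CPM in CD-HFD spleen and 54.1 ± 21.0 CPM in ND spleen (SD, n = 6, 4, 6 and 5).

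Markers of other cells moved with these comparisons, and their part in the result was not tested. On CD-HFD, 9 of 9 tested markers of plasmacytoid dendritic cells, 3 of 4 of B cells and 2 of 5 of NK cells were lower in CXCR6pos than in CXCR6neg cells, the direction opposite to that of the A1 genes. In the direction of the A1 genes, the 1 tested hepatocyte marker, Apoe, averaged 73.6 CPM in CXCR6pos and 12.6 CPM in CXCR6neg cells. Apoe averaged 79.5 CPM in CD-HFD spleen. Among the untested hepatocyte markers Alb, Serpina1a and Fabp1 had higher means in CXCR6pos cells, and Apoa1, Apoa2 and Ttr had lower means. The 1 tested marker of regulatory and CD4 T cells, Izumo1r, averaged 91.7 and 45.3 CPM in CXCR6pos and CXCR6neg cells. Its list gave lower means in CXCR6pos cells for Cd4 (0.58 against 11.1 CPM), Foxp3 (0.58 against 0.71 CPM) and Cd40lg (0.58 against 4.19 CPM). Of Apoe and Izumo1r, both called higher by edgeR, DESeq2 called Apoe alone. The 7 hepatocyte markers, Apoe included, summed to 34.6 to 172 CPM in CD-HFD CXCR6pos libraries, with 1 of them at 0. In CD-HFD CXCR6neg libraries they summed to 4.41 to 72.4 CPM, also with 1 at 0. The summed plasmacytoid dendritic cell markers held 124 to 249 CPM in CD-HFD CXCR6pos libraries, with Ccr9 and Spib at 0, and 930 to 1556 CPM in CD-HFD CXCR6neg libraries. The summed B cell markers held 177 to 301 CPM in CD-HFD CXCR6pos libraries, 1062 to 1416 CPM in CD-HFD CXCR6neg libraries and 2002 to 2881 CPM in CD-HFD spleen libraries. The summed NK cell markers held 236 to 460 CPM in CD-HFD CXCR6pos libraries and 615 to 753 CPM in CD-HFD CXCR6neg libraries. The 8 T cell markers summed to 14099 to 15546 CPM in CD-HFD CXCR6pos libraries and 9970 to 10385 CPM in CD-HFD CXCR6neg libraries, with 5 of 8 higher and 0 lower. The 4 proliferation markers had a median sum of 70.9 CPM (0 to 80.9) in CD-HFD CXCR6pos libraries. It was 16.1 CPM (7.53 to 42.5) in CD-HFD CXCR6neg and 30.9 CPM (17.3 to 49.2) in ND CXCR6pos libraries. The 1 tested marker of that list, Top2a, was called against neither group by edgeR (unadjusted p under 0.05 in each) or DESeq2. On CD-HFD, edgeR and DESeq2 called Top2a higher in CXCR6pos cells than in spleen (edgeR adjusted p = 0.0171).

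Between the diets within CXCR6pos cells, edgeR called 0 of 9 plasmacytoid dendritic cell markers (7 at an unadjusted p under 0.05; DESeq2 called 3) and 0 of 4 B cell markers (2 unadjusted; DESeq2 called 0). There 1 of 5 NK cell markers was higher and 4 were lower, and 4 of 8 T cell markers were higher. Izumo1r was also higher with the A1 genes, at 91.7 CPM on CD-HFD and 24.6 CPM on ND (means; called by edgeR and DESeq2). In its list Cd4 (0.58 against 0.95 CPM) and Cd40lg (0.58 against 15.1 CPM) had lower means on CD-HFD. Foxp3 averaged 0.58 CPM on CD-HFD and 0 on ND. The library ND CXCR6pos replicate 6 stood apart, with 133 CPM of Siglech and a plasmacytoid dendritic cell sum of 1120 CPM, where the other 5 ND CXCR6pos libraries had at most 6.68 and 205 CPM. Without that library the diet differences in CXCR6pos cells were 0.76 for Bcl2a1b and 1.17 for Bcl2a1d (edgeR adjusted p = 0.0248 and 0.00101).

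Between liver and spleen on CD-HFD, the summed macrophage and Kupffer cell markers held 2.89 to 23.6 CPM in CXCR6pos libraries, with 3 of 7 markers at 0, and 50.2 to 107 CPM in spleen libraries. In CXCR6neg cells against spleen, where the A1 genes were also higher, 8 of 9 plasmacytoid dendritic cell markers were higher on CD-HFD and 6 of 9 on ND. Of 5 erythroid markers, the haemoglobin genes and Alas2, edgeR called 2 higher in CXCR6pos cells than in spleen on CD-HFD and 3 on ND, and in CXCR6neg cells 0 on CD-HFD (3 at an unadjusted p under 0.05; DESeq2 called 1) and 3 on ND. On CD-HFD they summed to 3654 to 10573 CPM in CXCR6pos, 1731 to 9148 CPM in CXCR6neg and 2345 to 5063 CPM in spleen libraries. On ND they summed to 2258 to 6095 CPM in CXCR6pos, 3900 to 9011 CPM in CXCR6neg and 818 to 1954 CPM in spleen libraries. The part of these shifts in the results was not tested. The summed neutrophil markers did not exceed 2.16 CPM in any library.

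Bcl2, the survival gene that gives the family its name, had a more even level. CXCR6pos cells on CD-HFD held 431, 365, 255, 358 and 265 CPM, and ND CXCR6pos cells ran from 292 over a median of 335 to 405 CPM. The groups overlapped, and the diet difference was -0.03 with a 95% interval from -0.30 to 0.23 (edgeR adjusted p = 0.934). CXCR6pos minus CXCR6neg cells on CD-HFD gave 0.19 with an interval from -0.08 to 0.46 (edgeR adjusted p = 0.475). Both intervals leave out a 2-fold difference of Bcl2 in either direction.

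Bcl2 was lower in liver CXCR6neg cells than in spleen on CD-HFD. The CXCR6neg libraries ran from 193 over a median of 291 to 418 CPM, and the spleen libraries ran from 309 over a median of 398 to 456 CPM. These ranges overlapped through CD-HFD CXCR6neg replicate 2 at 418 CPM. The log2 fold change was -0.38 ± 0.12 (edgeR adjusted p = 0.0207). The call was lost without CD-HFD CXCR6neg replicate 4, 5 or 6 or CD-HFD spleen replicate 3 or 4, with values from -0.32 to -0.35 and edgeR adjusted p up to 0.0793. DESeq2 gave -0.37 with an adjusted p of 0.0502, just past the threshold. On ND the difference was -0.27 with an interval from -0.54 to -0.00 (edgeR adjusted p = 0.257). CXCR6pos cells differed from spleen by -0.20 on CD-HFD and -0.22 on ND, with intervals from -0.45 to 0.06 and -0.46 to 0.02 (edgeR adjusted p = 0.279 and 0.263).

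Bcl2l1, which encodes BCL-XL, gave no call in any comparison. It averaged 41.7 ± 18.3 CPM in CD-HFD CXCR6pos cells and 48.7 ± 5.81 CPM in ND CXCR6pos cells (SD, n = 5 and 6), with CD-HFD CXCR6pos replicate 1 at 11.8 CPM. It averaged 34.8 ± 14.3 CPM in CD-HFD CXCR6neg cells, 36.2 ± 12.0 CPM in ND CXCR6neg cells, 33.2 ± 9.58 CPM in CD-HFD spleen and 30.7 ± 10.8 CPM in ND spleen (SD, n = 6, 4, 6 and 5). The 6 ND CXCR6pos libraries, from 43.1 to 59.2 CPM, all lay above the 5 ND spleen libraries, whose highest was 39.3 CPM. That difference was 0.50 with an interval from -0.05 to 1.04 and did not pass the threshold (edgeR adjusted p = 0.257).

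Mcl1, a survival gene whose protein turns over quickly, had the smallest ratio of highest to lowest group mean. The CD-HFD CXCR6pos libraries were spread widely, at 64.97, 108, 18.7, 72.1 and 53.1 CPM, and ND CXCR6pos libraries ran from 43.4 over a median of 66.5 to 86.7 CPM. Group means lay between 63.4 ± 32.3 CPM in CD-HFD CXCR6pos cells and 78.9 ± 15.2 CPM in ND spleen (SD, n = 5 each). The diet difference in CXCR6pos cells was 0.07 with an interval from -0.42 to 0.57 (edgeR adjusted p = 0.920). CXCR6pos minus CXCR6neg cells gave -0.15 on CD-HFD and -0.08 on ND, with intervals from -0.65 to 0.35 and -0.58 to 0.43.

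Bax, an effector of membrane permeabilisation, was higher in CXCR6pos liver cells than in spleen on both diets, by a small margin. The CD-HFD CXCR6pos libraries held 213, 155, 224, 343 and 159 CPM, and the CD-HFD spleen libraries ran from 153 over a median of 164 to 185 CPM. The groups overlapped, with replicates 2 and 5 of the CXCR6pos cells inside the spleen range. The log2 fold change was 0.47 ± 0.15 (edgeR adjusted p = 0.0113), but without CD-HFD CXCR6pos replicate 4, the highest library, it was 0.16 (edgeR adjusted p = 0.585).

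On ND the CXCR6pos libraries ran from 189 over a median of 202 to 260 CPM of Bax, and the spleen libraries held 118, 138, 161, 193 and 226 CPM, again overlapping. The log2 fold change was 0.41 ± 0.15 (edgeR adjusted p = 0.0474). It lost the call without ND CXCR6pos replicate 2, 3 or 5 or ND spleen replicate 1, 2 or 3, with values from 0.31 to 0.42 and edgeR adjusted p up to 0.205. DESeq2 gave 0.39 with an adjusted p of 0.144. In CXCR6neg cells Bax exceeded spleen by 0.30 on CD-HFD and 0.32 on ND without passing the threshold (edgeR adjusted p = 0.191 and 0.285). The diet differences of Bax were 0.11 in CXCR6pos cells, 0.03 in CXCR6neg cells and 0.05 in spleen, with intervals from -0.20 to 0.42, -0.30 to 0.36 and -0.23 to 0.33.

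Bak1, the other effector, was counted thinly and gave no call. It averaged 28.3 ± 12.7 CPM in CD-HFD CXCR6pos cells and 19.0 ± 10.9 CPM in ND CXCR6pos cells (SD, n = 5 and 6), from 25 and 36 counts in all. CXCR6neg cells held 23.8 ± 15.4 CPM on CD-HFD and 26.7 ± 17.6 CPM on ND, and spleen held 23.0 ± 11.3 CPM on CD-HFD and 19.4 ± 4.61 CPM on ND (SD, n = 6, 4, 6 and 5). The diet difference in CXCR6pos cells was 0.18 with an interval from -0.68 to 1.04, which leaves out a 2-fold fall of Bak1 but not a 2-fold rise.

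Bid, the BH3-only gene whose protein is cut by caspase-8 downstream of death receptors, was higher in CXCR6pos than in CXCR6neg cells of CD-HFD liver. The CXCR6pos libraries held 76.8, 43.9, 43.6, 57.7 and 88.4 CPM, and the CXCR6neg libraries ran from 11.3 over a median of 27.6 to 48.3 CPM. The ranges overlapped through CXCR6neg replicate 5 at 48.3 CPM. The log2 fold change was 1.07 ± 0.32 (2.10-fold; edgeR adjusted p = 0.0143), resting on 58 counts in CXCR6pos and 35 counts in CXCR6neg cells. Without CD-HFD CXCR6pos replicate 1 it was 0.96 and without CD-HFD CXCR6neg replicate 2 it was 0.88, and the call was lost (edgeR adjusted p = 0.0545 and 0.0691).

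Elsewhere Bid gave no call. The CD-HFD minus ND difference was 0.43 in CXCR6pos cells, -0.29 in CXCR6neg cells and -0.01 in spleen, with intervals from -0.12 to 0.99, -0.996 to 0.42 and -0.47 to 0.44 (edgeR adjusted p = 0.400, 0.912 and 1.00). CXCR6neg cells were at -0.70 relative to spleen on CD-HFD, with an interval from -1.25 to -0.14 and an edgeR adjusted p of 0.101. In ND liver, CXCR6pos minus CXCR6neg cells gave 0.35 with an interval from -0.27 to 0.98, and ND CXCR6neg libraries held 40.0, 9.03, 42.0 and 35.4 CPM of Bid.

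Bcl2l11, which encodes BIM, gave no call in any comparison. CXCR6pos cells held 29.5, 30.4, 24.9, 37.5 and 17.7 CPM on CD-HFD and ran from 0 over a median of 19.9 to 50.1 CPM on ND. CXCR6neg cells ran from 0 over a median of 22.5 to 39.7 CPM on CD-HFD and held 26.7, 45.2, 29.7 and 46.0 CPM on ND. The diet difference was 0.28 in CXCR6pos cells and -0.55 in CXCR6neg cells, with intervals from -0.47 to 1.02 and -1.30 to 0.19 (edgeR adjusted p = 0.756 and 0.757). A tag at the 3′ end stands for a transcript whatever its length, so counts of Bcl2l11 could be set against those of Bcl2 in the same library. The Bcl2l11 count had a median of 8.33% of the Bcl2 count in CD-HFD CXCR6pos cells and 4.96% in ND CXCR6pos cells. It was 7.23% in CD-HFD CXCR6neg cells, 11.3% in ND CXCR6neg cells, 7.10% in CD-HFD spleen and 5.36% in ND spleen, and the ranges of these groups overlapped.

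**Figure D3:**
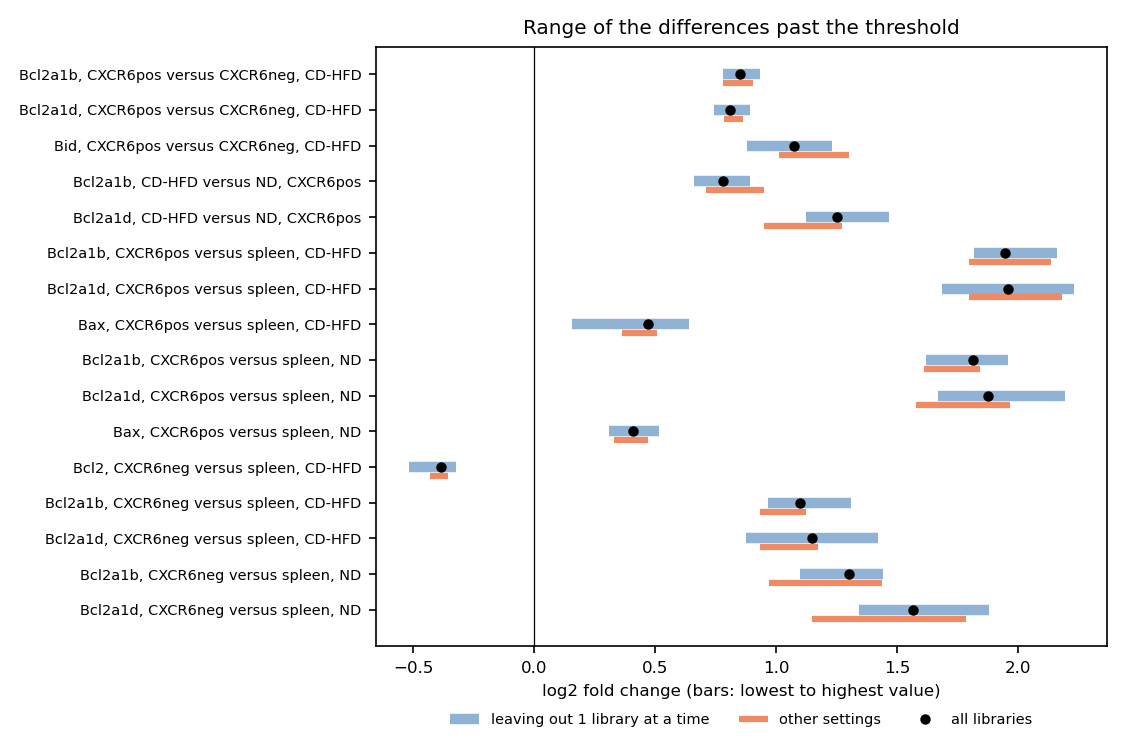
Log2 fold changes (x axis) of the 16 results of single members past the threshold (rows), with black points for all libraries, blue bars for the range when each library was left out in turn and orange bars for the range over the other settings. The bar of Bax in CXCR6pos cells against spleen on CD-HFD reaches down to 0.16, and the bars of Bcl2a1b lie at 0.66 or above.

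Across the 32 libraries the members moved together only in part. Bcl2a1b and Bcl2a1d, which may share reads, had a Pearson r of 0.64 on log2 CPM, and of 0.85 without the 2 shallowest libraries. After group means were removed, r over all 32 libraries was 0.22 for this pair. Bcl2 ran opposite to Bcl2a1d, with r = -0.58 over all libraries and -0.47 within groups. With the other copy, Bcl2a1b, Bcl2 had only -0.23 over all libraries and 0.06 within groups. These are descriptions over libraries that share groups and depth, with no test. The genes most like Bcl2a1b over the 32 libraries were Lilr4b (r = 0.91), Casp1 (0.90) and Isg15 (0.90). Those most like Bcl2a1d were Ccl5 (0.88), Gzmk (0.86) and S100a11 (0.85). After group means were removed, Casp1 had 0.90 with Bcl2a1b and Ccl5 had 0.64 with Bcl2a1d, with the 2 shallowest libraries included. Bcl2a1b was at 0 in the shallowest. Without these 2 libraries, and with group means kept, Bcl2a1b had 0.91 with Lilr4b, 0.85 with Casp1 and 0.83 with Isg15. Bcl2a1d then had 0.89 with Ccl5.

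For the other members the likest genes were Pa2g4 for Bcl2 (r = 0.77), Ebpl for Bcl2l1 (0.61), Thoc3 for Bcl2l11 (0.83) and Stim1 for Mcl1 (0.66). They were Id2 for Bax (0.64), Eipr1 for Bak1 (0.77) and Gimap4 for Bid (0.66). Without the 2 shallowest libraries the value for Bcl2l11 and Thoc3 was 0.73 and that for Bak1 and Eipr1 was 0.60.

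Of 14 other BCL2 family genes in the table, 6 passed the filter: Bcl2l12, Bcl2l13, Bad, Bbc3, Pmaip1 and Bnip3l. Pmaip1, which encodes the BH3-only protein NOXA, a partner of MCL1 and A1, was the 1 that was called. It was higher in liver than in spleen in all 4 comparisons, and the list gave 0 calls in the others (at most 1 at an unadjusted p under 0.05 in edgeR; 0 in DESeq2). Pmaip1 averaged 90.2 ± 35.7 CPM in CD-HFD CXCR6pos cells, 68.4 ± 14.9 CPM in CD-HFD CXCR6neg cells and 26.6 ± 4.26 CPM in CD-HFD spleen (SD, n = 5, 6 and 6). The log2 differences from spleen were 1.90 ± 0.24 for CXCR6pos and 1.34 ± 0.25 for CXCR6neg cells on CD-HFD, and 1.67 ± 0.27 and 1.74 ± 0.30 on ND (edgeR adjusted p = 1.08e-10, 1.57e-05, 7.20e-07 and 4.54e-06). The list's median log2 difference was -0.23 for CXCR6pos cells and 0.13 for CXCR6neg cells against spleen on CD-HFD, beside -0.01 and -0.02 for all genes.

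Of 29 genes of the apoptosis machinery, 20 passed the filter. In CXCR6pos against CXCR6neg cells on CD-HFD, 2 rose and 1 fell, with a list median of 0.04 beside -0.00 for all genes and 4.76% of all genes higher and 6.38% lower. Tnfrsf1a, a receptor for TNF, rose by 0.98 ± 0.33 (edgeR adjusted p = 0.0368), a call that DESeq2 did not give (adjusted p = 0.0602). Fas, the death receptor, averaged 25.6 ± 10.8 CPM in CXCR6pos cells against 60.4 ± 33.9 CPM in CXCR6neg cells (SD, n = 5 and 6) and fell by 1.29 on the log2 scale (edgeR adjusted p = 0.0101), whereas its ligand Fasl rose by 0.67 ± 0.14 (edgeR adjusted p = 0.000158).

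The diet comparison in CXCR6pos cells called 0 of the 20 apoptosis genes higher and 1 lower by edgeR (2 at an unadjusted p under 0.05), and DESeq2 called 0, with an adjusted p of 0.0511 for Fas. Fas averaged 25.6 ± 10.8 CPM on CD-HFD and 49.2 ± 8.56 CPM on ND (SD, n = 5 and 6) and fell by 1.18 on the log2 scale (edgeR adjusted p = 0.0179). The same comparison called 0 of the 20 in CXCR6neg cells and 0 of 20 in spleen by edgeR (1 at an unadjusted p under 0.05 in each) and 0 in each by DESeq2. Against spleen, Fasl was higher in both liver fractions on both diets, by 1.84 to 2.50 on the log2 scale. Trp53, which encodes the tumour suppressor p53, was lower than in spleen in CXCR6pos cells on CD-HFD and in CXCR6neg cells on ND (log2 fold changes of -0.58 and -0.64, edgeR adjusted p = 0.0102 and 0.0231). DESeq2 gave adjusted p = 0.0318 and 0.0551 for Trp53 there.

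Of 21 genes upstream of the family (cytokine receptors, JAK-STAT, NF-kB and transcription factors), 16 passed the filter. In CXCR6pos against CXCR6neg cells on CD-HFD, 1 rose and 5 fell, and the list median was -0.38 beside -0.00 for all genes, of which 4.76% were higher and 6.38% lower. The largest falls were those of Il7r, the interleukin 7 receptor chain, and Tcf7, a transcription factor of naive and memory T cells. Il7r averaged 44.4 ± 15.2 CPM in CXCR6pos and 276 ± 42.3 CPM in CXCR6neg cells, and Tcf7 averaged 56.1 ± 24.1 CPM and 286 ± 44.5 CPM (SD, n = 5 and 6). They fell by 2.55 and 2.36 on the log2 scale (edgeR adjusted p = 2.18e-11 and 2.40e-18). Pim1, a kinase that phosphorylates BAD, averaged 59.1 ± 7.24 CPM in CXCR6pos and 135 ± 31.1 CPM in CXCR6neg cells (SD, n = 5 and 6), and Rel, an NF-kB subunit, averaged 23.8 ± 20.7 CPM against 55.0 ± 18.7 CPM. Both fell, by 1.16 and 1.03 on the log2 scale (edgeR adjusted p = 9.43e-05 and 0.0314), in the comparison in which Bcl2a1b and Bcl2a1d rose. DESeq2 called the same genes of the list except Rel (adjusted p = 0.0541). Il2rb, a receptor chain shared by interleukin 2 and interleukin 15, was higher by 0.36 ± 0.11 (edgeR adjusted p = 0.0140).

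Between the diets in CXCR6pos cells, 2 of the 16 upstream genes rose and 5 fell, with a list median of -0.38 beside -0.00. Il2rb rose by 0.47 ± 0.11 and Jak3 by 0.82 ± 0.28 (edgeR adjusted p = 0.000823 and 0.0395), of which DESeq2 did not call Jak3 (adjusted p = 0.101). Nr4a1, a nuclear receptor induced by antigen receptor signals, averaged 285 ± 97.8 CPM on CD-HFD and 576 ± 160 CPM on ND (SD, n = 5 and 6), a log2 fold change of -1.07 ± 0.21 (edgeR adjusted p = 0.000586). Il2rg, the common cytokine receptor chain, was at -0.52 ± 0.11 (edgeR adjusted p = 0.000176). Of the 16, edgeR called 0 between the diets in CXCR6neg cells, 0 in spleen and 0 between the fractions of ND liver (2, 2 and 1 at an unadjusted p under 0.05), and DESeq2 also called 0 in each.

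Nr4a1 had the largest log2 fold change among the upstream genes called in each of the 4 comparisons of liver with spleen. CD-HFD CXCR6neg cells averaged 441 ± 125 CPM and CD-HFD spleen 17.3 ± 9.25 CPM (SD, n = 6 each), a log2 fold change of 4.44 ± 0.27 (edgeR adjusted p = 2.23e-13). The liver fractions exceeded spleen by 3.91 to 4.60 on the log2 scale across diets. Pim1 was higher than in spleen in CXCR6neg cells on CD-HFD by 1.10 ± 0.18 and on ND by 1.139 ± 0.21, and in ND CXCR6pos cells by 1.28 ± 0.19 (edgeR adjusted p = 1.94e-06, 3.30e-05 and 5.96e-08). Nfkb2 and Rel were also higher in CD-HFD CXCR6neg cells than in CD-HFD spleen, by 1.02 ± 0.21 and 0.80 ± 0.26 (edgeR adjusted p = 0.000187 and 0.0304), of which DESeq2 did not call Rel (adjusted p = 0.0585).

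**Figure D4:**
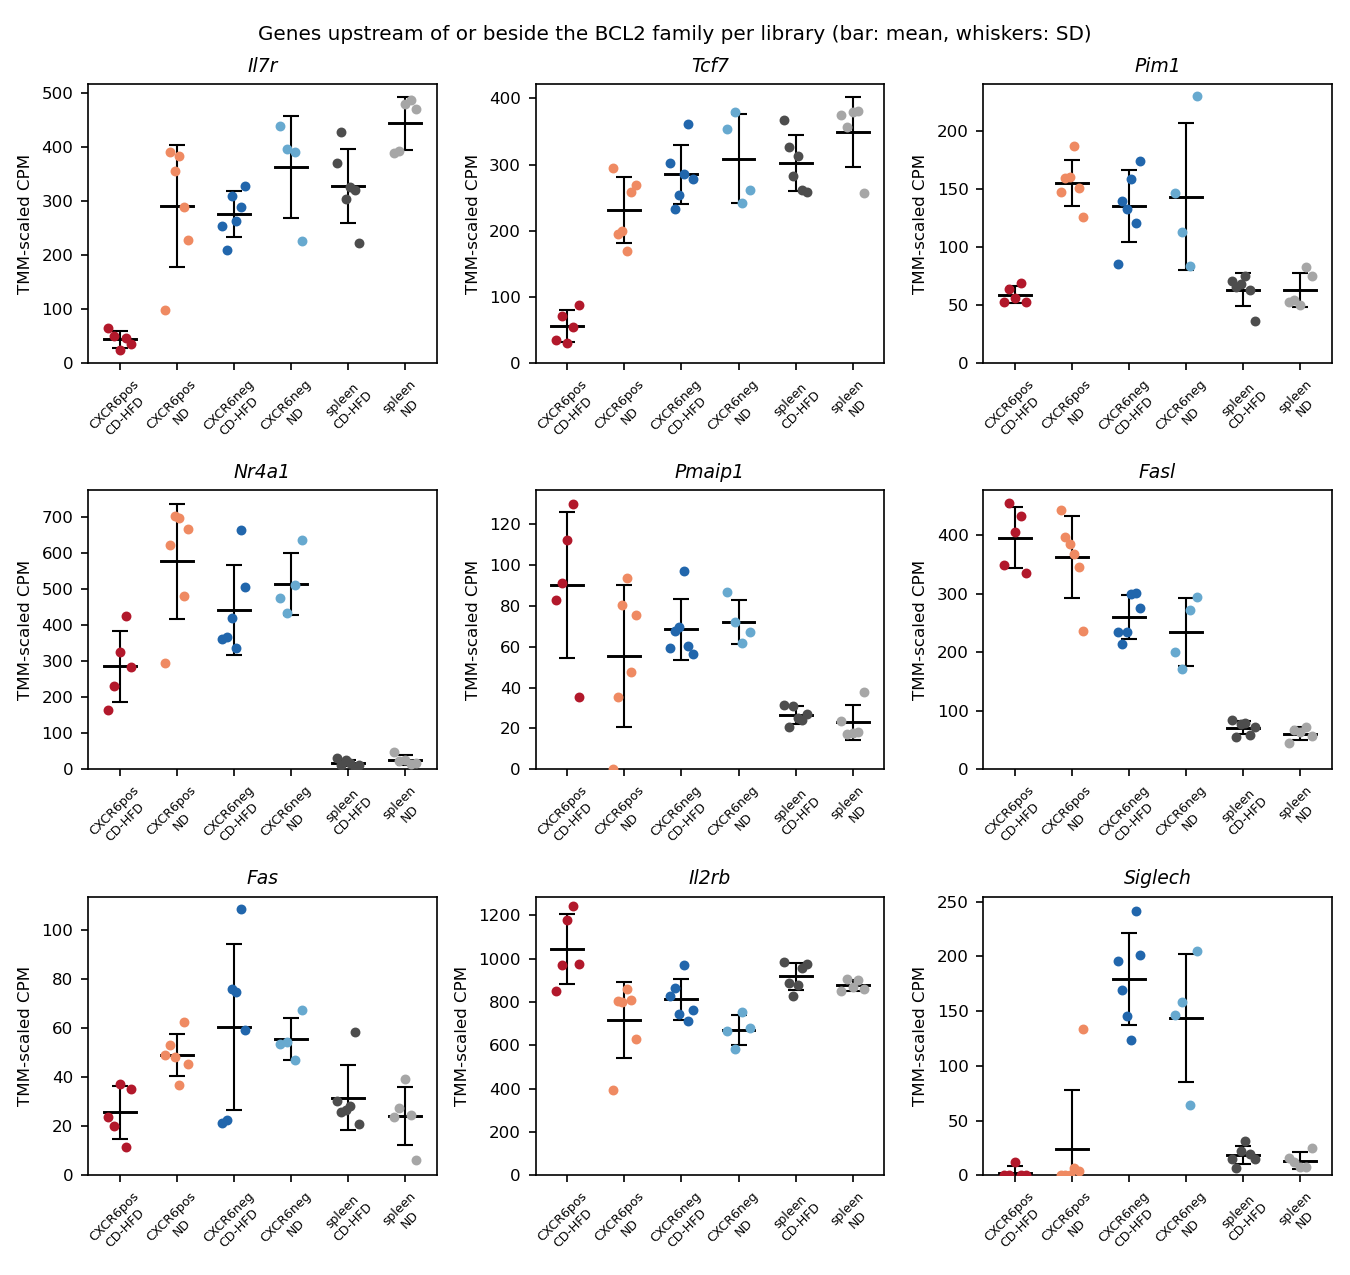
TMM-scaled CPM (y axes, starting at 0) of 8 genes upstream of or beside the BCL2 family, and of the plasmacytoid dendritic cell marker Siglech, in each library (points) of the 6 groups (x axes), with mean and SD. Il7r, Tcf7 and Pim1 are low in the 5 CD-HFD CXCR6pos libraries relative to the other liver libraries, and Nr4a1, Pmaip1 and Fasl are low in spleen. For Pmaip1 single libraries overlap, with ND CXCR6pos down to 0 CPM and ND spleen up to 37.6 CPM.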

How the data were processed

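Whole-number read counts per gene were deposited by the authors for bulk 3′ RNA-seq libraries, and the submitters' processing notes name GRCm38.p6 and DESeq2 1.14.1. Not given in the sources used here were the aligner, counter, annotation, strand setting and use of molecular identifiers. Of 35 value columns 34 matched a sample by name, and 1 column was used in no step. The sample CD-HFD CXCR6pos replicate 6 was not analysed here. One ND liver CXCR6neg column and one ND spleen column were identical for all 22865 genes and both were left out, which left 32 libraries in 6 groups with a median of 308123 counts.

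Counts were filtered with filterByExpr (minimum count 10), scaled by TMM and fitted with edgeR 4.0.16 (limma 3.58.1, R 4.3.3), all groups in 1 quasi-likelihood fit, with Benjamini-Hochberg adjustment over 6174 genes and a threshold of 0.05. SE is the absolute log2 fold change divided by the root of F, and intervals are 95%. Correlations used log2 CPM with a prior count of 2. The scripts were tested on simulated data. Alternatives were DESeq2 1.42.0, other size factors, filters, copies of the identical library, libraries left out, summed Bcl2a1 rows, the compared groups alone and a replicate block. All 9 genes are named, with up to 6 genes per pathway list that passed the threshold and the 3 likest genes of each member. The members, the gene and marker lists and the likeness rule were chosen with earlier results of these data known, and the correlations without the shallowest libraries were added after seeing the data. Exact intervals of shares cover counting error only. A gene of the apoptosis list is not reported here.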

Additional observations from a re-analysis of the deposited data

Results flagged for a closer look

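Of 54 groups of member values screened for a single library far from the others, 2 held one. The screen set the gap between the extreme library and its nearest neighbour, as a share of the group's range, against Dixon's 95% critical value, which by its construction chance passes in about 1 in 20 groups. In CD-HFD spleen, replicate 3 held 45.2 CPM of Bcl2l11, far above the next library of its group. In the same group, replicate 2 held 56.0 CPM of Bid. Neither gene gave a call in a diet comparison of spleen.

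The effect of CD-HFD against ND differed between cell fractions for 3 of the 16 upstream genes, by edgeR's quasi-likelihood test of the difference itself. The effect in CXCR6pos cells minus that in CXCR6neg cells was -1.94 for Tcf7, a transcription factor of naive and memory T cells, -2.38 for Il7r, the interleukin 7 receptor chain, and -1.30 for Pim1, a survival kinase (edgeR adjusted p = 1.71e-08, 4.83e-07 and 0.00640). Relative to spleen the differences were -1.83 for Tcf7, -2.36 for Il7r and -1.35 for Pim1 (edgeR adjusted p = 6.71e-09, 5.65e-08 and 0.00177). Both tests share the CXCR6pos libraries. No member of the BCL2 family gave a call in either test.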

How the results depend on the processing

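Of 16 results of single members past the threshold, 10 kept their direction and call under every alternative run, and of 83 others 82 were never called; no direction reversed among the called results. Members called in CXCR6pos against CXCR6neg cells on CD-HFD numbered 3 with all libraries, 1 with no low-count filter and 1 to 3 when a library was left out, with 1 without CD-HFD CXCR6neg replicate 2. In ND CXCR6neg cells against spleen they numbered 2, 1 with only the groups compared, 1 with the replicate block added, and 1 to 2 when a library was left out, with 1 without ND CXCR6neg replicate 5. Between the diets in spleen they numbered 0, and 0 to 1 when a library was left out, with 1 without CD-HFD spleen replicate 2. With only the groups compared, Bcl2a1d did not pass the count filter in ND CXCR6neg cells and spleen. Correlations of same-numbered deviations ran from -0.06 to 0.08. At these depths weak correlations cannot show whether the replicate numbers pair the samples, so pairing was left undecided. With the replicate block both Bax calls were also lost (edgeR adjusted p = 0.0901 on CD-HFD and 0.224 on ND). Over all genes, CXCR6pos against CXCR6neg cells on ND called 2 genes, 0 with RLE size factors, 15 with DESeq2, 18 with no filter, 75 with the replicate block and 90 without the libraries against their Cxcr6 label. The diet comparison called 29 genes in CXCR6neg cells, 8, 19 and 45 without ND CXCR6neg replicate 4, 5 or 2, 9 without the libraries against their Cxcr6 label, 47 with only the groups compared, and 53 or 55 with the identical library kept in liver or in both groups. It called 2 genes in spleen, 0 with the identical library kept in liver, 8 with no filter and 12 with the replicate block. The difference of diet effects between CXCR6pos and CXCR6neg cells was called for 89 genes and for 53 without the libraries against their Cxcr6 label. The diet comparison within CXCR6pos cells called 697 genes and 418 with the replicate block. On ND, CXCR6pos cells against spleen called 890 genes and 575 with that block, and CXCR6neg cells against spleen called 424 genes 245 with the identical library kept in liver and 209 with it kept in both groups. With no low-count filter the median of all genes moved by more than 0.1 for the diet effect in CXCR6pos cells minus that in spleen, to -0.15 beside -0.01. Low counts, such as 25 of Bak1 in CD-HFD CXCR6pos cells and 26 of Bcl2a1d in ND spleen, limit the precision of those values.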
